A study of Mus musculus with 8 samples.

Results

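Sox2, Sox9, Fabp7, Slc1a3, Vim, Nes, Mfge8, Ddah1 and Ednrb are genes by which radial glia, the stem cells of the developing cortex, are commonly recognised. They were chosen by symbol, make up 9 of the 27998 genes listed, and each had 1 row. They were followed through cell classes defined by other marker genes, in single cells from mouse cortex at embryonic day 16.5. ShhN cortices (4 samples) came from CD1 embryos that received a ShhN plasmid by in utero electroporation at E13.5, where E stands for embryonic day. They were set against cortices of CD1 wild type littermates of the same age (4 samples). The plasmid encodes the active fragment of the secreted morphogen sonic hedgehog (SHH), and electroporation delivers plasmid to only some of the progenitors that line the ventricle. The promoter of the plasmid is not given in the sources used here, and the labels do not say whether the littermates received another plasmid. Per its title, the study asks how SHH as an outside signal steers the lineage of cortical stem cells.

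Radial glia have their cell bodies in the ventricular zone and a long fibre that reaches the surface of the brain. They divide to renew themselves and to produce neurons, either directly or through intermediate progenitors, and later turn to making glia and olfactory bulb neurons. Their identity rests on SOX transcription factors and Notch signalling, and they share with astrocytes a glutamate transporter, a brain fatty acid-binding protein and a set of intermediate filaments.

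Each group came as 1 count matrix, so there was 1 library per group, no test between groups and no replicate check of any difference. After doublets were removed there were 8063 ShhN cells and 6911 wild type cells, with medians of 6677 and 6274 unique molecular identifiers (UMIs) per cell. Of the cell barcodes, 71 occurred in both libraries, which is 0.881% of the ShhN cells and 1.03% of the wild type cells. Shh itself had 5906 UMIs in ShhN cells and 0 in wild type cells, at least 1595-fold higher against a floor of 3 counts in the library. Levels are counts scaled to the summed UMIs of the same cells (CPM), ratios are log2 of ShhN over wild type, and square brackets hold 95% intervals for counting error only. A difference was called by a rule of size: the gene needed 50 or more UMIs in the libraries together, a log2 ratio of 1 or beyond on either side, and an interval that stayed 0.5 or more away from 0.

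Cells were clustered without the 9 genes and named without them, so that their levels did not set the classes. Of 24 clusters, number 13 was radial glia-like. All 13 genes of its naming list were higher in it than in the other cells, and it was led by Mt3, Aldoc, Phgdh and Dbi. It held 247 ShhN cells (3.06% [2.70, 3.46] of the library) and 174 wild type cells (2.52% [2.16, 2.91]). The summed level of the naming list was 7795 CPM in ShhN and 8314 CPM in wild type radial glia-like cells. Oligodendrocyte precursor markers, 2 of 5 seen in ShhN and 1 of 5 in wild type, summed to 1.69 CPM in ShhN and 1.42 CPM in wild type radial glia-like cells, with Pdgfra, Sox10 and Gpr17 at 0 in both. Astrocyte markers, 5 of 7 seen in both, summed to 94.1 CPM in ShhN and 101 CPM in wild type, with Agt and Gjb6 at 0 in both. Among those seen were Slc1a2, with 26 UMIs in ShhN and 27 in wild type, and Gfap, with 8 and 9. Endothelial markers summed to 14.1 CPM in ShhN and 9.95 CPM in wild type radial glia-like cells, with 4 and 2 of 9 markers seen. Microglia markers summed to 0.563 CPM and 1.42 CPM, with 1 and 2 of 9 seen. Neurogenic intermediate progenitor markers, 10 of 10 seen in both, summed to 690 CPM in ShhN and 1115 CPM in wild type radial glia-like cells, and their part in the results below was not tested. Erythroid markers, 6 of 6 seen in both, summed to 4690 CPM in ShhN and 977 CPM in wild type radial glia-like cells. Of the ShhN cells 2 carried over 5% globin UMIs, and without them, a choice made after seeing the data, globin UMIs stood at 512 CPM in ShhN against 978 CPM in wild type.

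Promoter windows of 3 of the genes are shown because Sox2 and Mfge8 held the 2 matches found in a motif search and because the level of Fabp7 set it apart from the other 8 genes. They are the 250 bases before the RefSeq start site in build GRCm38.p6, written 5′ to 3′ on the strand of the gene. A promoter was matched for 8 of the 9 genes, all but Sox9. Gene positions given below are those of the GENCODE annotation, whose starts can differ. Against these, 3 of the 8 windows lie upstream of the gene (Sox2, Mfge8 and Slc1a3), 3 run across its start (Fabp7 with 42 bases inside, Nes with 15 and Ddah1 with 17) and 2 lie inside it (Vim and Ednrb). In the 250 bases, 4 motifs were searched as plain letters on both strands: ACAAAG (SOX factors), GTGGGAA (RBPJ, the DNA-binding partner of Notch), ATGCAAAT (POU octamer) and TGGGTGGTC (GLI factors). ACAAAG was found in Sox2 alone of the 8 promoters, on the strand of the gene with its first base at position -206, and in 16.5% of all 32851 RefSeq promoter windows of this length. GTGGGAA was found in Mfge8 alone, on the opposite strand with its first base at position -83, and in 5.42% of all windows. ATGCAAAT and TGGGTGGTC, which stood in 1.6% and 0.225% of all windows, were in none of the 8. Capitals mark the matched letters. Sox2 is at chr3:34649745-34649994 on the plus strand, Mfge8 at chr7:79149061-79149310 on the minus strand and Fabp7 at chr10:57784673-57784922 on the plus strand, and Fabp7 has no capitals because no motif matched.
Sox2: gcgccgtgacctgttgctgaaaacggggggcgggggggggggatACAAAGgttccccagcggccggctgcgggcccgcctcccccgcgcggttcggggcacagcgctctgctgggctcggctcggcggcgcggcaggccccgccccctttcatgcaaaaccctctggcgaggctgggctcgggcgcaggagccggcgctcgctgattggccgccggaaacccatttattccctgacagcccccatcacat
Mfge8: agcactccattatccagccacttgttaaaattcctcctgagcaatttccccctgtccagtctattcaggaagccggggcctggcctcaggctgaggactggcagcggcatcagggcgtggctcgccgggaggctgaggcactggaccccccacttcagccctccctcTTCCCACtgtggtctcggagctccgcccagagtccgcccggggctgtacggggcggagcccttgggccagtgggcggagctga
Fabp7: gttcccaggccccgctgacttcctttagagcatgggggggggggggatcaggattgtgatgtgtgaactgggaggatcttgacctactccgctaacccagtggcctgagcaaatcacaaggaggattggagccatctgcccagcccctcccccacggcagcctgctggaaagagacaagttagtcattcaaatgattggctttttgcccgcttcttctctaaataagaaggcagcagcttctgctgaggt

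Sox2 (GRCm38 chromosome 3, 34650405 to 34652461, plus strand) encodes the HMG-box transcription factor that keeps neural progenitors undifferentiated. Over all cells it had 4035 UMIs (70.6 CPM) in ShhN and 2003 UMIs (43.3 CPM) in wild type, a log2 ratio of 0.71 [0.63, 0.78]. Radial glia-like cells had 473 CPM [441, 506] in ShhN and 401 CPM [369, 435] in wild type, a log2 ratio of 0.24 [0.08, 0.39]. The difference was thus larger over the whole library than within the stem cell class. Radial glia-like cells held 20.8% of all Sox2 UMIs in ShhN and 28.2% in wild type. The gene was also present in GABAergic interneuron-like cells, at 185 CPM in ShhN and 210 CPM in wild type, and was at 3.79 CPM and 2.84 CPM in upper layer neuron-like cells.

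Sox9 (GRCm38 chromosome 11, 112782224 to 112787760, plus strand) encodes a related HMG-box factor of neural stem cells, known for its role in the onset of glial development. Its total was 2885 UMIs (50.5 CPM) in ShhN and 1231 UMIs (26.6 CPM) in wild type, a log2 ratio of 0.92 [0.83, 1.02] just short of the rule. Within radial glia-like cells it stood at 451 CPM [421, 484] in ShhN and 369 CPM [338, 402] in wild type, a log2 ratio of 0.29 [0.13, 0.45]. These cells carried 27.8% of the Sox9 UMIs in ShhN and 42.2% in wild type. The remaining cells held 2084 UMIs (37.6 CPM) in ShhN and 712 UMIs (15.9 CPM) in wild type. That ratio of 1.25 [1.12, 1.37] passed the rule. Free RNA moved the same way, since barcodes with 1 to 50 UMIs had 65.4 CPM of Sox9 in ShhN and 35.1 CPM in wild type. Upper layer neuron-like cells of the same libraries had Sox9 at 6.77 CPM in ShhN and 7.76 CPM in wild type.

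Fabp7 (GRCm38 chromosome 10, 57784881 to 57788450, plus strand) encodes brain lipid-binding protein, which carries long-chain fatty acids in radial glia. It ran opposite to the SOX genes. All cells together had 12876 UMIs (225 CPM) in ShhN and 14679 UMIs (317 CPM) in wild type, a log2 ratio of -0.49 [-0.53, -0.46]. Radial glia-like cells held 6818 UMIs (3841 CPM [3751, 3934]) in ShhN and 9461 UMIs (6726 CPM [6591, 6863]) in wild type. The log2 ratio was -0.81 [-0.85, -0.76], a level in ShhN of 0.571 of that in wild type, which did not reach the rule of size. Of the 6722 genes measured in these cells, 1.92% had a ratio as low or lower. Among the 468 genes with at least 1000 UMIs there, a limit chosen after the values were seen, Fabp7 had the lowest ratio of all.

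The difference was also seen in the typical cell. The median radial glia-like cell had 16 Fabp7 UMIs in ShhN and 30 in wild type, or 2482 CPM and 4232 CPM of the cell's own UMIs. The quartiles were 919 and 5023 CPM in ShhN cells and 1928 and 7979 CPM in wild type cells, so the distributions overlapped widely. The highest cell reached 46011 CPM in ShhN and 58330 CPM in wild type. Variance over mean of the UMIs per cell was 47.0 in ShhN and 79.8 in wild type, against at most 8.45 in ShhN and 15.02 in wild type for any of the other 8 genes, both of Vim. Such a value tends to rise with the mean count, which was higher in wild type. It therefore does not show in which library Fabp7 varied more relative to its level. The 25 ShhN and 18 wild type cells with the most Fabp7 UMIs held 41.7% and 40.0% of the class's Fabp7 UMIs. The share of cells with a UMI hardly differed, at 96.5% in ShhN and 96.6% in wild type after each cell was thinned to 4500 UMIs.

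**Figure D1:**
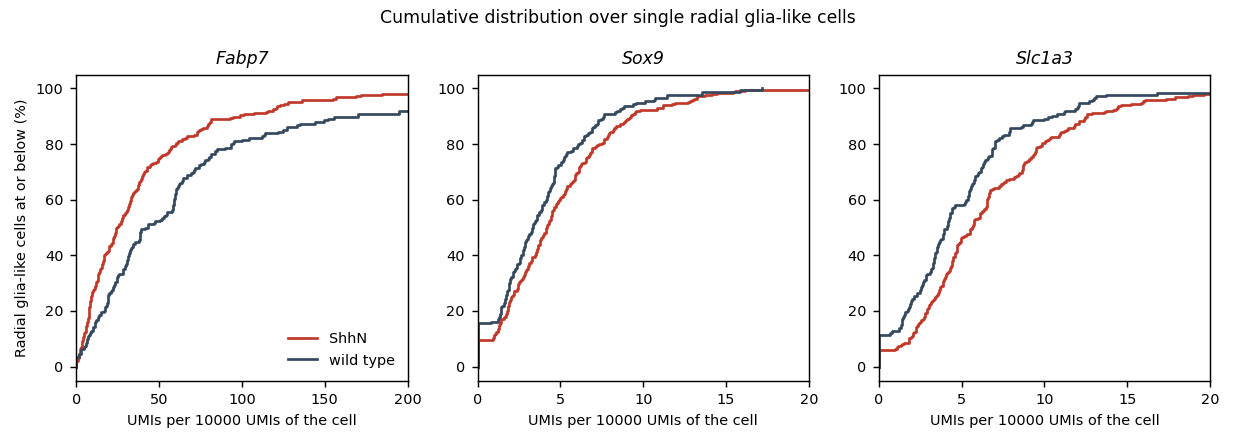
Cumulative distribution of Fabp7, Sox9 and Slc1a3 over single radial glia-like cells (247 ShhN cells in red, 174 wild type cells in dark blue). The x axis is UMIs per 10000 UMIs of the cell and the y axis the percentage of cells at or below that level; for Fabp7 the axis ends before the highest cells, and the ShhN curve runs left of the wild type curve over most of its course, while for Slc1a3 it runs to the right.

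Slc1a3 (GRCm38 chromosome 15, 8634124 to 8710764, minus strand) encodes the glutamate transporter GLAST, which clears glutamate and is found in radial glia and astrocytes. Over all cells it had 3426 UMIs (59.9 CPM) in ShhN and 2293 UMIs (49.5 CPM) in wild type, a log2 ratio of 0.28 [0.20, 0.35]. Radial glia-like cells had 641 CPM [604, 679] in ShhN and 459 CPM [425, 496] in wild type, a log2 ratio of 0.48 [0.34, 0.62]. Of the 6722 genes, 7.17% had a ratio as high or higher. A gate on marker genes without clustering, described below, took in a different mix of cells in each library. It gave 0.21 for Slc1a3, 0.26 for Nes and 0.30 for Sox2. Outside the progenitors Slc1a3 was not silent: deep layer neuron-like cells had 38.5 CPM in ShhN and 49.3 CPM in wild type, against 0.855 CPM and 2.03 CPM in GABAergic interneuron-like cells.

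Vim (GRCm38 chromosome 2, 13573927 to 13582826, plus strand) and Nes (GRCm38 chromosome 3, 87971078 to 87980451, plus strand) encode vimentin and nestin, the intermediate filament proteins of the radial fibre. Vim had 13060 UMIs (228 CPM) in ShhN and 9684 UMIs (209 CPM) in wild type over all cells, a log2 ratio of 0.13 [0.09, 0.17]. It was nearly level in radial glia-like cells, with 2685 CPM [2609, 2762] in ShhN and 2621 CPM [2537, 2707] in wild type, a log2 ratio of 0.03 [-0.03, 0.10]. Nes had 2274 UMIs (39.8 CPM) in ShhN and 1334 UMIs (28.8 CPM) in wild type over all cells, a log2 ratio of 0.47 [0.37, 0.56]. Nes in radial glia-like cells stood at 257 CPM [234, 282] in ShhN and 191 CPM [169, 216] in wild type, a log2 ratio of 0.43 [0.21, 0.65]. The 2 filament genes thus parted within the class, the interval of Nes lying above 0 and that of Vim spanning it. Both were also high in vascular-like cells, where Vim had 1213 CPM in ShhN and 977 CPM in wild type and Nes had 185 CPM and 126 CPM.

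Mfge8 (GRCm38 chromosome 7, 79133768 to 79149060, minus strand) encodes a secreted protein that binds phosphatidylserine and integrins. It had 1265 UMIs (22.1 CPM) in ShhN and 1037 UMIs (22.4 CPM) in wild type, a log2 ratio of -0.02 [-0.14, 0.10]. Its levels in radial glia-like cells were 390 CPM [361, 420] in ShhN and 440 CPM [406, 476] in wild type, a log2 ratio of -0.17 [-0.33, -0.02]. Ddah1 (GRCm38 chromosome 3, 145758675 to 145894277, plus strand) encodes the enzyme that breaks down asymmetric dimethylarginine, an inhibitor of nitric oxide synthases. It had 2619 UMIs (45.8 CPM) in ShhN and 2195 UMIs (47.4 CPM) in wild type, a log2 ratio of -0.05 [-0.13, 0.03]. Radial glia-like cells had 776 CPM [736, 818] in ShhN and 908 CPM [859, 959] in wild type, a log2 ratio of -0.23 [-0.34, -0.11]. In cells chosen by a gate on 8 marker genes without clustering, the ratios were larger in size, at -0.76 for Mfge8 and -0.79 for Ddah1. Of the gated cells, 58.9% in ShhN and 86.6% in wild type lay in the radial glia-like cluster, so the mix of cells differed between the libraries.

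Ednrb (GRCm38 chromosome 14, 103814625 to 103844402, minus strand) encodes the endothelin receptor B, a G protein-coupled receptor of neural progenitors and glia. It was the sparsest of the 9 genes in UMIs, with 282 (4.93 CPM) in ShhN and 121 (2.61 CPM) in wild type, a log2 ratio of 0.92 [0.60, 1.24]. Within radial glia-like cells it had 69.3 CPM [57.6, 82.7] in ShhN and 63.3 CPM [50.8, 77.9] in wild type, a log2 ratio of 0.13 [-0.27, 0.54]. The remaining cells held 159 Ednrb UMIs (2.87 CPM) in ShhN and 32 (0.713 CPM) in wild type, a ratio of 2.01 [1.45, 2.61] that passed the rule. Of those UMIs, 112 in ShhN and 15 in wild type came from cluster 15, described below. Accordingly, radial glia-like cells held 43.6% of all Ednrb UMIs in ShhN and 73.6% in wild type.

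**Figure D2:**
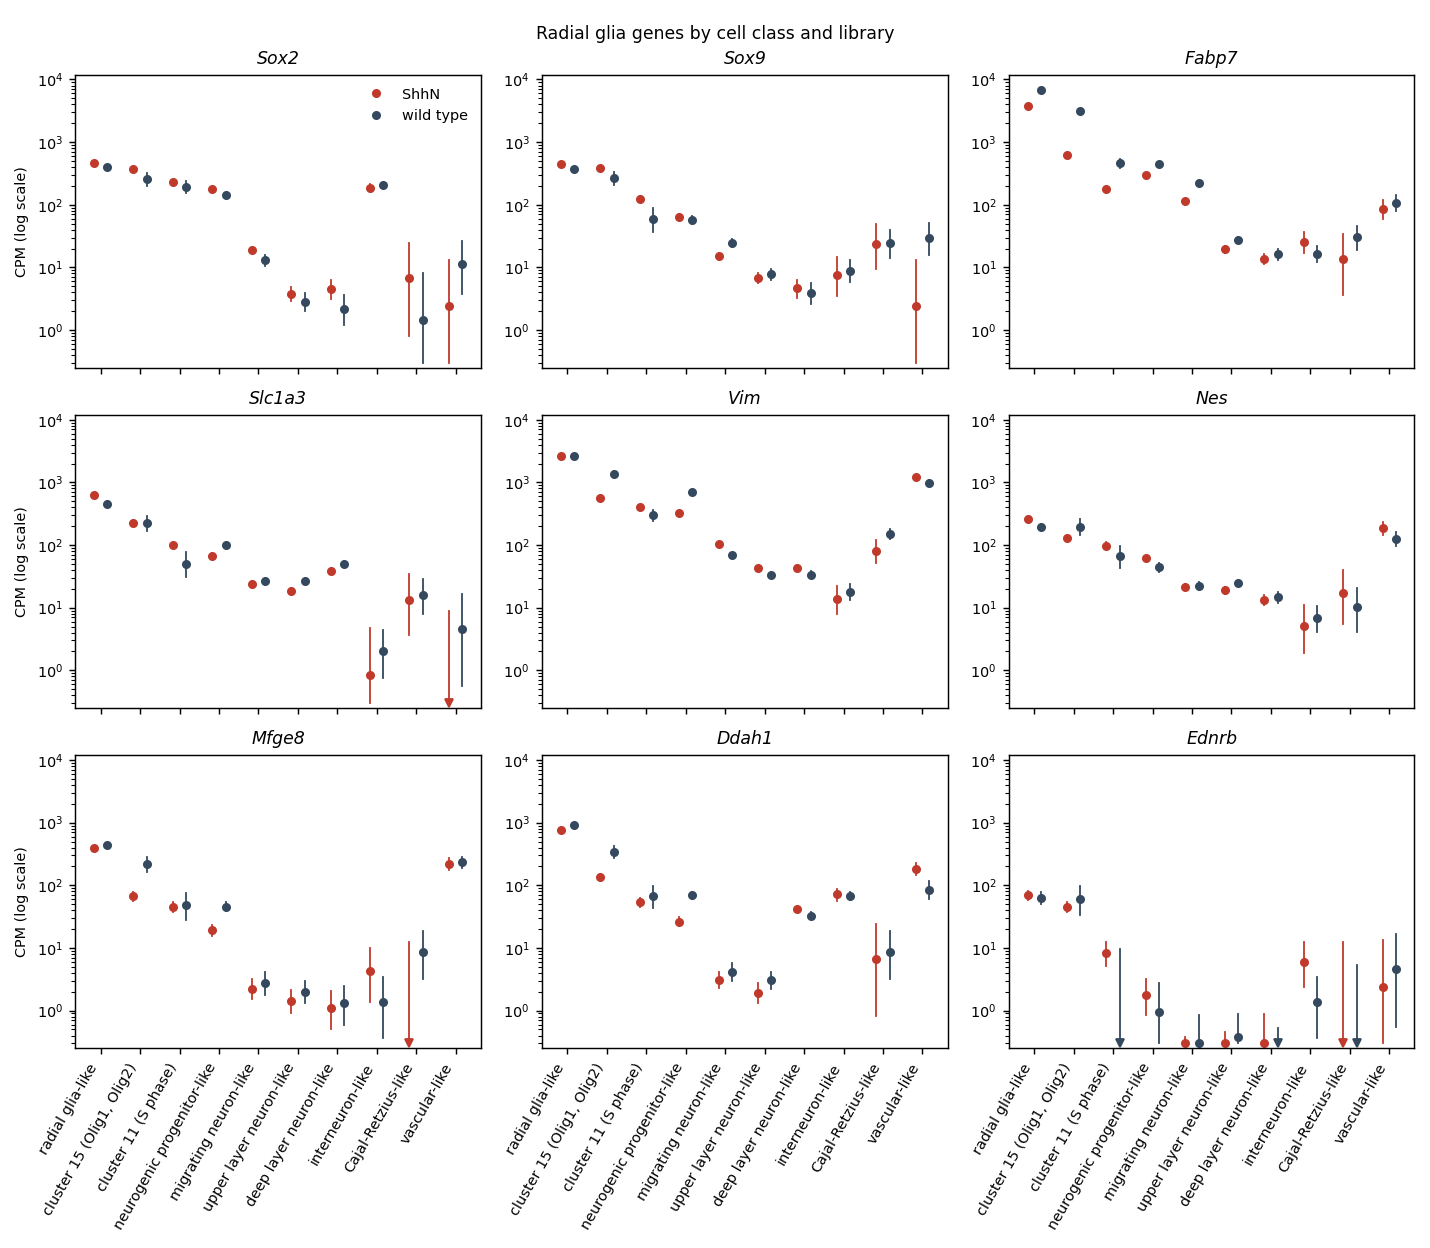
Level of each gene (CPM, log scale) in 10 cell classes, ShhN in red to the left and wild type in dark blue to the right of each position, with 95% Poisson intervals. Triangles and points on the lower edge stand for levels at 0 or too low to draw; radial glia-like cells stood highest for every gene in both libraries except Nes in wild type, where cluster 15 had 196 CPM and radial glia-like cells 191 CPM.

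Over all cells, 0 of 9 genes passed the rule, against 2.84% of 13024 measured genes called higher and 1.9% called lower. Of the 9, 6 had intervals above 0 (Sox2, Sox9, Slc1a3, Vim, Nes and Ednrb) and Fabp7 had one below 0, where 19.9% of all measured genes had an interval above 0 and 38.1% one below 0. Such intervals narrow with the number of UMIs. Among the 7848 genes with at least 1000 UMIs, the shares were 23.3% above 0 and 44.3% below 0. The median log2 ratio of the 9 genes was 0.28, and that of all measured genes was -0.08. In radial glia-like cells 0 of 9 passed, against 0.521% of 6722 genes called higher and 0.58% called lower. Of the 9 intervals 4 lay above 0 (Sox2, Sox9, Slc1a3 and Nes) and 3 below (Fabp7, Mfge8 and Ddah1), where 6.92% of all genes had an interval above 0 and 8.21% one below 0. Among the 468 genes with at least 1000 UMIs in these cells, which include 7 of the 9, the shares were 20.3% above 0 and 18.4% below 0, and of those 7 genes 3 lay above 0 and 3 below. The median ratio of the 9 was 0.13, beside -0.03 for all genes. Outside radial glia-like cells 2 of 9 were called higher, Sox9 and Ednrb, where 3.05% of 12923 genes were called higher and 2% lower. A sum over all cells does not by itself separate the share of a cell type from the level within its cells. With no tagging of cells to embryos, neither could be compared between embryos.

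**Figure D3:**
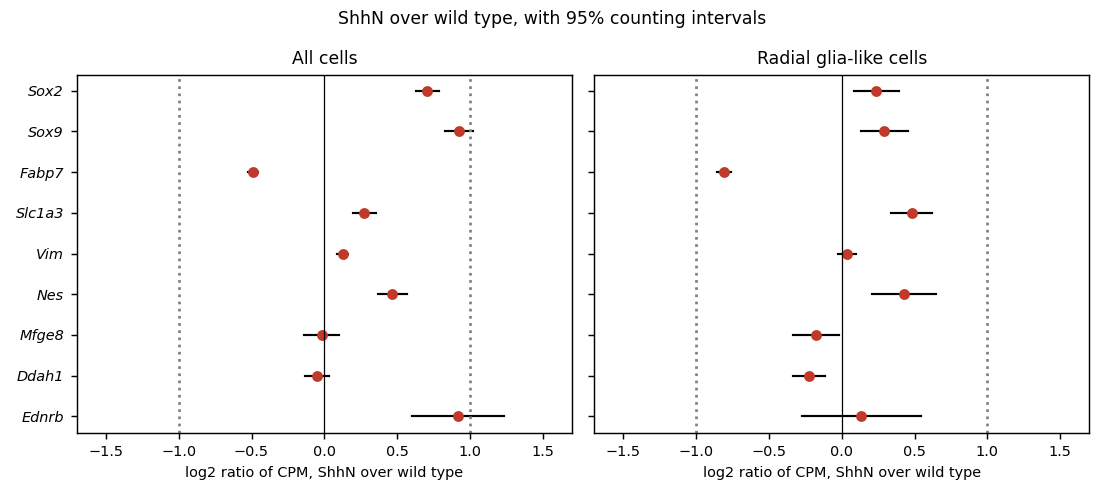
Log2 ratio of CPM, ShhN over wild type, for the 9 genes in all cells (left) and in radial glia-like cells (right), with 95% counting intervals and dotted lines at the rule's size of 1. Fabp7 lies at -0.49 and -0.81, apart from the other 8 genes in both panels.

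The sum of the 9 genes was nearly equal in both libraries but was spread differently over the cells. Over all cells it came to 747.3 CPM in ShhN and 746.7 CPM in wild type. Radial glia-like cells had 9583 CPM in ShhN and 12179 CPM in wild type, and in the remaining cells 464 CPM and 389 CPM. Fabp7 and Vim make up most of these sums. The level of each gene over all cells was also recomputed over the 24 clusters, changing either the cluster shares or the levels. These values are not parts of a whole and need not add up to the observed ratio. Had every cluster kept its wild type level, the cluster shares of the ShhN library would have put Fabp7 at 495 CPM, a log2 ratio of 0.64, whereas the observed ratio was -0.49. With wild type shares and ShhN levels the ratio would have been -0.79. For Sox9 the shares gave 0.61 and the levels 0.21, and for Sox2 0.42 and 0.18. For Ednrb the shares gave 0.93 and the levels 0.24. All of these share values use the wild type level of cluster 15, which rests on 23 cells. Those cells held 796 Fabp7, 66 Sox9, 64 Sox2 and 15 Ednrb UMIs. The cluster made up 4.34% of ShhN and 0.539% of wild type UMIs.

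Among the clusters with a larger share of ShhN cells were progenitors other than radial glia-like cells. Cluster 15, led by Olig1 and Olig2, which encode bHLH transcription factors of glial progenitors, held 284 ShhN cells (3.52%) and 23 wild type cells (0.333%). Cluster 11, led by S phase genes such as Ung and Mcm3 with Ccnd2 and the olfactory bulb factor Sp9, held 430 ShhN cells (5.33%) and 55 wild type cells (0.796%). In cluster 15 all 9 genes were present. Sox2 stood there at 374 CPM in ShhN and 256 CPM in wild type, Sox9 at 384 CPM and 264 CPM, and Ednrb at 45.2 CPM and 60.1 CPM. Of the 9 genes 4 were called lower in cluster 15, where 1.17% of 5818 genes were called lower and 1.27% higher: Fabp7 at 633 CPM in ShhN and 3187 CPM in wild type (-2.33 [-2.46, -2.21]), Mfge8 (-1.69), Ddah1 (-1.30) and Vim (-1.27). Those wild type levels rest on 23 cells. Under 13 other choices of scaling, filter, depth or clustering the Fabp7 call was made in 13, those of Mfge8 and Ddah1 in 11 each and that of Vim in 8. The naming list of radial glia summed to 1723 CPM in ShhN and 2919 CPM in wild type cells of the cluster, and erythroid markers to 4035 CPM and 921 CPM, and the part of neither in the lower levels was tested. In cluster 11, 1 of 8 measured genes was called lower, where 0.761% of 6305 genes were called lower and 0.397% higher. That was Fabp7, with 181 CPM in ShhN and 457 CPM in wild type (-1.34 [-1.59, -1.08]), a call made in 9 of the 9 other settings that had such a class. In both clusters many of the other settings used the same cells, and a changed minimum of UMIs left the ratio as it was. Sox9 in cluster 11 had 125 CPM in ShhN and 58.5 CPM in wild type, and its ratio of 1.10 [0.48, 1.79] fell just short of the rule.

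The Eomes lineage was described cluster by cluster, since its clusters were filled differently. Cluster 10, led by Eomes, Mfap4 and Neurog2, held 186 ShhN and 369 wild type cells, and 0 of 8 measured genes were called there, where 0.229% of 6564 genes were called higher and 0.305% lower. Fabp7 in it had 272 CPM in ShhN and 359 CPM in wild type (-0.40 [-0.59, -0.21]), and Vim had 800 CPM and 847 CPM. Cluster 12, led by the mitotic genes Top2a and Nusap1, held 400 ShhN and 76 wild type cells. There 3 of 8 genes were called lower, where 0.51% of 7058 genes were: Ddah1 at 22.7 CPM in ShhN and 96.0 CPM in wild type (-2.08), Mfge8 (-1.28) and Fabp7 at 291 CPM and 708 CPM (-1.28). Cluster 16, led by Cenpa and Ube2c, held 168 ShhN and 37 wild type cells and none of its 6 measured genes was called, where 0.211% of 3319 genes were called higher and 0.0904% lower. Taken as 1 class, these 3 clusters had 3 of 8 genes called lower, Ddah1 (-1.41), Mfge8 (-1.25) and Vim (-1.10), where 2.41% of 8946 genes were called lower and 3.72% higher. Of 14 other settings, 10 made the Ddah1 call, 10 the Mfge8 call and 6 the Vim call, and the ratios reached -0.21, -0.22 and 0.09. The Vim call arose in the class and not within any of its clusters, where Vim was at -0.08, -0.68 and -0.61 in clusters 10, 12 and 16.

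Across all clusters with at least 20 cells in both libraries, Fabp7 was mostly lower in ShhN. It was measured in 18 of 22 clusters and was below 0 in 16, with a median of -0.69. Vim was above 0 in 13 of 18 clusters. Sox2 was above 0 in 9 of 12 clusters, and it was called higher in cluster 2, migrating neuron-like cells led by Pcp4 and Unc5d, at 35.6 CPM in ShhN and 17.1 CPM in wild type (1.06 [0.60, 1.53]; 0.423% of 8266 genes were called higher there). Mfge8 was below 0 in 6 of 6 measured clusters. Sox9 was divided 6 to 6, Slc1a3 8 to 8 and Nes 9 to 8. Slc1a3 was called lower in cluster 5, upper layer neuron-like cells led by Fam19a2 and Inhba (-1.47; 0.269% of 8544 genes were called lower there). In vascular-like cells, 34 in ShhN and 47 in wild type, 1 of 5 measured genes was called higher, where 0.341% of 2641 genes were called higher and 1.02% lower: Ddah1, with 185 CPM in ShhN and 84.7 CPM in wild type (1.13 [0.55, 1.74]). That call was lost with a minimum of 200 UMIs, after thinning and with at most 5% mitochondrial UMIs.

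With the main settings, neurons as whole classes gave no call for the 9 genes. Migrating neuron-like cells had 8 of the 9 measured and 0 called, where 0.605% of 10244 genes were called higher and 0.976% lower. Fabp7 stood at 114 CPM in ShhN and 227 CPM in wild type migrating neuron-like cells, a log2 ratio of -0.99 [-1.09, -0.90] just short of the rule, and Vim at 102 CPM and 69.6 CPM. This class joins clusters 0, 2 and 4, which were filled differently. Cluster 0 held 1364 ShhN and 245 wild type cells, and cluster 2 held 440 and 817. Within clusters 0, 2 and 4 Fabp7 was at -0.81, -0.52 and -0.99. In upper layer neuron-like cells 0 of 7 were called, where 0.382% of 10479 genes were called higher and 0.41% lower, and in deep layer neuron-like cells 0 of 7, where 0.0511% of 9779 were called higher and 0.215% lower. GABAergic interneuron-like cells had 0 of 4 called, where 0.324% of 7097 genes were called higher and 0.268% lower. Cajal-Retzius-like cells, 30 in ShhN and 70 in wild type, had only Vim measured, at 80.9 CPM in ShhN and 152 CPM in wild type, and it was not called, where 0.089% of 3371 genes were called higher and 0.119% lower.

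**Figure D4:**
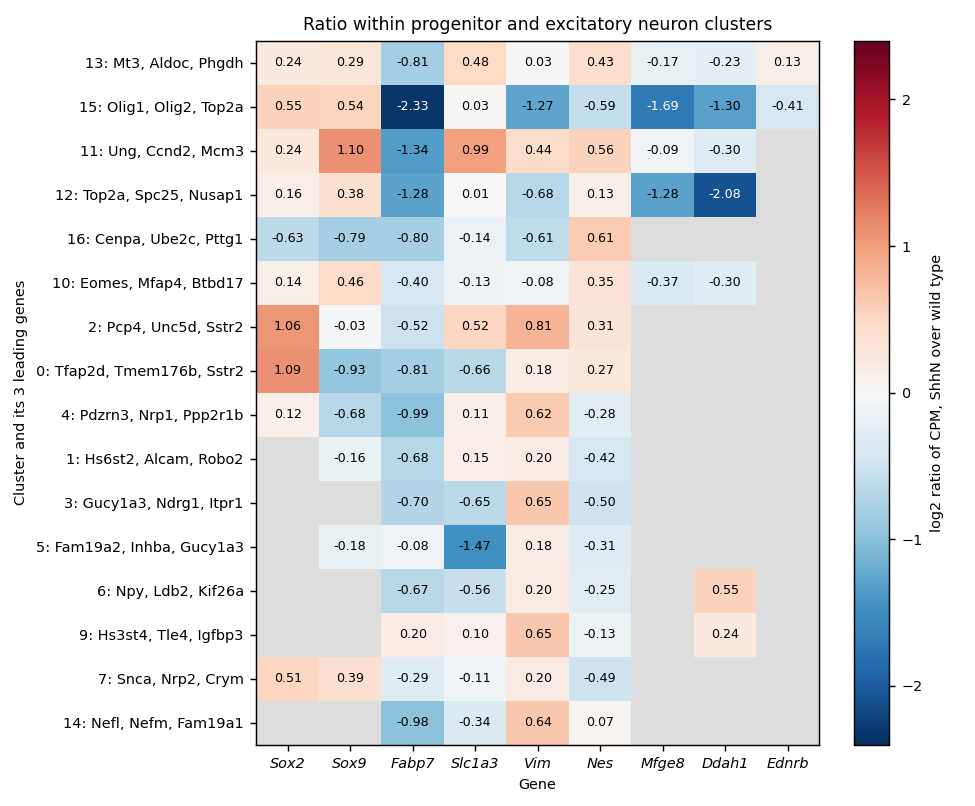
Log2 ratio of CPM, ShhN over wild type, for each gene (columns) within 16 progenitor, excitatory neuron and unnamed clusters (rows, with their 3 leading genes); grey cells have under 50 UMIs over both libraries. Fabp7 is below 0 in 15 of the 16 rows, and its lowest value, -2.33, is in the cluster led by Olig1 and Olig2.

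Counting the genes per cell needed no clusters. Each cell was thinned to 4500 UMIs, which left out 1056 ShhN cells and 1664 wild type cells that were shallower. Cells with a UMI of at least 6 of the 9 genes were 306 of 7007 in ShhN (4.37% [3.90, 4.87]) and 161 of 5247 in wild type (3.07% [2.62, 3.57]), a ratio of 1.42 [1.17, 1.73]. Without thinning the shares were 6.30% in ShhN and 3.57% in wild type. At the other end, 38.6% of ShhN cells and 40.2% of wild type cells had none of the 9. Of the cells with at least 6, radial glia-like cells made up 188 (61.4%) in ShhN and 132 (82.0%) in wild type. The others in ShhN were mostly in cluster 15, with 64 cells, and cluster 11, with 33, where wild type had 10 and 0. Outside radial glia-like cells the share with at least 6 was 1.73% in ShhN and 0.569% in wild type. Within them it was 93.1% [88.6, 96.2] in ShhN and 88.6% [82.4, 93.2] in wild type, with a median of 7 of the 9 genes in both.

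**Figure D5:**
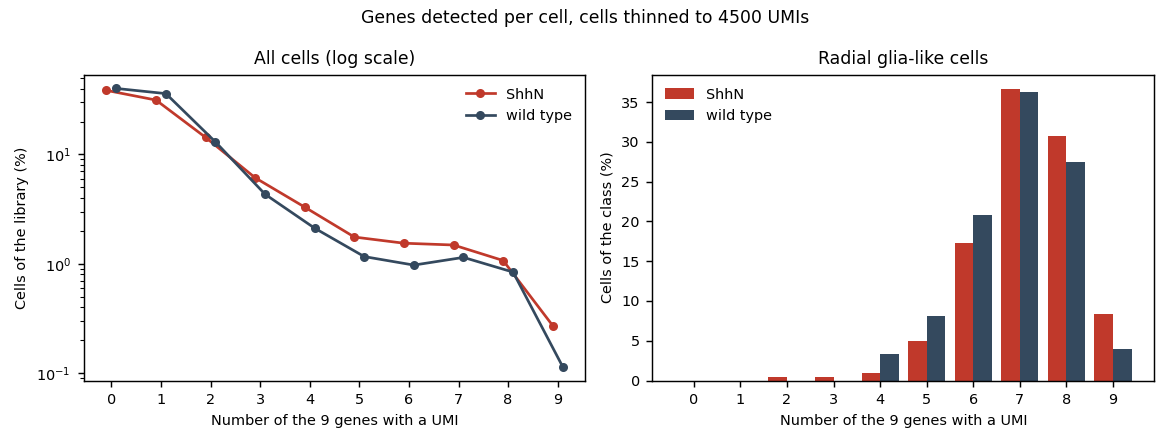
Percentage of cells (y axis; log scale on the left) by the number of the 9 genes with a UMI (x axis), over all cells and over radial glia-like cells, after thinning to 4500 UMIs, ShhN in red and wild type in dark blue. ShhN lies above wild type at 2 and more genes over all cells, while both libraries peak at 7 genes in radial glia-like cells.

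The shares of cells with a UMI stood far above the background in neurons, which should lack most of these genes. After thinning, Sox9 was seen in 83.7% [77.8, 88.5] of ShhN and 74.5% [66.7, 81.3] of wild type radial glia-like cells, and in 2.43% and 2.49% of upper and deep layer neuron-like cells. Nes was seen in 63.9% [56.8, 70.5] of ShhN and 53.7% [45.3, 61.9] of wild type radial glia-like cells, and in 7.28% and 9.66% of those neurons. For Sox9 and Nes the intervals of both libraries overlap within radial glia-like cells, as do those of Sox2, at 81.7% in ShhN and 80.5% in wild type. Ednrb was seen in only 24.3% of ShhN and 22.8% of wild type radial glia-like cells, and in 0.0693% and 0.124% of the neurons. Median depth before thinning was 6231 UMIs in ShhN and 6919.5 in wild type radial glia-like cells, and 7624 and 7158 in the neurons.

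Radial glia-like cells were next split by a UMI of Mki67 or Top2a, genes of dividing cells. Such cells numbered 106 of 247 in ShhN and 72 of 174 in wild type, and they were deeper, with medians of 7732 against 5518 UMIs in ShhN and 8090.5 against 5824.5 in wild type. Of the 9 genes 0 passed the rule between dividing and other cells in either library, where 2.9% of genes were called higher and 0.349% lower in ShhN, and 2.34% and 0.214% in wild type. Sox2 in the dividing cells lay above its level in the others by 0.45 [0.25, 0.65] in ShhN and 0.39 [0.15, 0.64] in wild type. After thinning to 4500 UMIs per cell these ratios were 0.72 [0.45, 1.01] in ShhN, with 93 dividing and 109 other cells, and 0.38 [0.03, 0.73] in wild type, with 66 and 83. Cells were still sorted as dividing by their unthinned UMIs. Vim fell by 0.47 in dividing ShhN cells and by 0.21 in dividing wild type cells, on the log2 scale. Fabp7 lay higher in dividing than in other cells, by 0.15 [0.08, 0.22] in ShhN and 0.39 [0.33, 0.45] in wild type. The lower Fabp7 level in ShhN was present with and without these UMIs. Among dividing cells Fabp7 had 4038 CPM in ShhN and 7598 CPM in wild type (-0.91 [-0.97, -0.85]), and among the others 3632 CPM and 5797 CPM (-0.67 [-0.74, -0.61]). Slc1a3 had 671 CPM in ShhN and 416 CPM in wild type dividing cells (0.69 [0.49, 0.89]), and 608 CPM and 505 CPM in the others (0.27 [0.07, 0.47]). In both strata 0 of 9 genes passed the rule, where 0.464% of genes were called higher and 0.506% lower among dividing cells, and 0.48% and 0.32% among the others.

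Many ShhN radial glia-like cells carried transcripts of the genes that SHH signalling induces. Ptch1, the receptor and feedback inhibitor, had 183 UMIs in ShhN and 14 in wild type radial glia-like cells, and Hhip, which sequesters SHH, had 65 and 0, at least 17.2-fold higher against a floor of 3 counts in the class. A Ptch1, Gli1 or Hhip UMI was seen in 105 of the 247 ShhN cells, of which 58.1% also had an Mki67 or Top2a UMI, against 31.7% of the other 142. Median depth was 7543 UMIs in the cells with such a UMI and 5535.5 in those without. Between these cells, all of 1 library, 0 of 9 genes passed the rule, where 1.29% of 4867 genes were called higher and 0.349% lower. Nes stood at 308 CPM with and 205 CPM without an SHH target UMI (0.59 [0.31, 0.87]), Sox2 at 544 CPM and 400.2 CPM (0.44 [0.24, 0.64]) and Slc1a3 at 727 CPM and 553 CPM (0.40 [0.22, 0.57]). Vim stood at 2182 CPM with and 3196 CPM without (-0.55 [-0.63, -0.47]). Ednrb (-0.62 [-1.17, -0.08]), Mfge8 (-0.29 [-0.51, -0.07]) and Ddah1 (-0.26 [-0.42, -0.11]) also had intervals below 0. The interval of Sox9 spanned 0 (-0.09 [-0.29, 0.12]). Fabp7, by contrast, was nearly level, at 3731 CPM with and 3953 CPM without (-0.08 [-0.15, -0.01]), and both values lay below the 6726 CPM of wild type radial glia-like cells. With each cell thinned to 4500 UMIs, a check added after seeing the data that kept 93 cells with and 109 without an SHH target UMI, the ratios were 0.74 for Nes, 0.60 for Sox2, 0.52 for Slc1a3, -0.51 for Vim and -0.05 for Fabp7. They were -0.84 for Ednrb, -0.29 for Ddah1, -0.11 for Sox9 and -0.09 for Mfge8. The cells were still sorted by their unthinned UMIs, so the split itself was not freed of depth. Division also moved with this split, and its part in it was not tested. The same split in wild type rested on 14 radial glia-like cells with a Ptch1, Gli1 or Hhip UMI and 160 without. Vim was there at -0.39 [-0.56, -0.23] and Fabp7 at 0.22 [0.14, 0.31], and the intervals of the other genes spanned 0.

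Other genes of the same pathways gave the surroundings of the 9. Of 13 further radial glia genes, those of the naming list, 0 were called higher and 2 lower in radial glia-like cells: Hopx, of outer radial glia, with 56 UMIs in ShhN and 121 in wild type (-1.45), and Tnc, of their matrix, with 79 and 140 (-1.16). Since these genes named the class, their values there are a description. Over all cells Hes1, a Notch effector, was called higher (1.69 [1.52, 1.87]) and Tnc lower (-1.08). Of the SOX relatives 1 of 4 measured genes was called higher over all cells, Sox1 (1.14), and 0 of 4 in radial glia-like cells, where Sox1 had 85.6 CPM in ShhN and 75.4 CPM in wild type. Fabp5, another fatty acid-binding protein, had 432 CPM in ShhN and 528 CPM in wild type radial glia-like cells (-0.29 [-0.44, -0.14]) and was level over all cells (0.02). Among the other carriers of the SLC1 family and glutamine synthetase, 0 of 5 were called over all cells. Ednra, the other endothelin receptor, was called lower over all cells on 38 ShhN and 74 wild type UMIs (-1.27), 1 of 3 measured genes of its pathway. Of other intermediate filaments, 1 of 6 was called lower over all cells, the neurofilament gene Nefl (-1.81). Of 4 genes of DDAH and nitric oxide and 3 integrin receptors of MFGE8, 0 were called.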

How the data were processed

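The deposited values are UMI counts per gene and droplet barcode, without normalization, in 1 matrix per group with 737280 barcodes each. The tools named are Seurat 3, Cell Ranger and StringTie, with build mm10 (GRCm38), per the submitters' processing notes; which step each served is not stated there. Papain-dissociated cortex was run on the 10x Chromium system, per the labels' protocols. Each matrix has 1 barcode suffix, so a cell's sample of origin among the 4 is unknown. The matrices name their group only as control and experimental, which were taken as the wild type and ShhN samples. Empty droplets are included, and 82.3% of ShhN and 72.6% of wild type UMIs lay in the cells kept.

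Cells had at least 10% of the 99th percentile of UMIs among the top 3000 barcodes (2290 UMIs in ShhN, 2333 in wild type), at least 800 genes and at most 10% mitochondrial UMIs. Doublets were called with scrublet in scanpy 1.11.5 and removed, 254 of 8317 ShhN (3.05%) and 305 of 7216 wild type barcodes (4.23%). The libraries were clustered jointly from 2000 variable genes, 30 components, 15 neighbours and Leiden resolution 1 (leidenalg 0.10.2), without batch correction. Not used as variable genes were the 9 genes, SHH pathway genes, globins, and mitochondrial and sex-linked genes. Names came from 19 marker lists that hold none of the 9. A name needed at least 3 markers seen in 10% of cells and 1.5-fold above other cells. After the clusters had been seen, this scoring was changed by joining endothelial and mural markers as vascular and leaving a cluster led by S100a8 unnamed, and cluster 11 is referred to by number because S phase genes lead it. The study's own names may differ.

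UMIs were summed per class and library. Intervals are 95% and cover counting error only: exact Poisson for CPM, conditional binomial for ratios, Clopper-Pearson for shares. A ratio of 2 shares carries the same conditional interval. The 9 genes could be named in every comparison. From other pathway lists, genes past the rule and at most 4 more per list with the most UMIs could be named, and for each of the 9 the 3 genes most alike in pattern. The 9 genes and the lists were chosen with earlier results of these data known. The counting code was tested on simulated data. Positions are from GENCODE on GRCm38 and promoters from RefSeq on GRCm38.p6. Alternatives covered scaling (edgeR 4.0.16 TMM and median-of-ratios), filters, free RNA, thinning, doublets, clustering and a marker gate. Added after seeing the data were the median cell, thinned splits and leaving out globin-rich cells.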

Additional observations from a re-analysis of the deposited data

Results flagged for a closer look

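Ddah1 was called in opposite directions in different classes, and the difference between these classes was not tested. Its log2 ratio of ShhN over wild type was -1.41 in the class of clusters 10, 12 and 16, and -1.30 in cluster 15, led by Olig1 and Olig2. It was 1.13 in vascular-like cells, on 78 UMIs in ShhN and 37 in wild type. The vascular call was made in 11 of 14 other settings and was lost with at least 200 UMIs, which the gene does not reach there, after thinning and with at most 5% mitochondrial UMIs, where the ratio was at least 0.86 throughout. The lower calls were made in 10 of 14 and 11 of 13 other settings.

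Barcodes with 1 to 50 UMIs, which enter no comparison of cells, held more Sox9 in ShhN, with 78 UMIs against 37 in wild type, a log2 ratio of 0.897. The same barcodes had 250 CPM of Fabp7 in ShhN and 308 CPM in wild type.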

How the results depend on the processing

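Over all cells, where 0 of the 9 genes passed the rule of size, 2 passed it (Sox9 and Ednrb) under TMM scaling and 2 under median-of-ratios size factors, which both add about 0.09 to every log2 ratio. Ednrb alone passed, a count of 1, with free RNA subtracted and 1 passed with equal weight per cell. With equal weight per cell no interval was formed, so a call needed only the ratio and the UMIs. For none of the other settings in this section was the share of all genes called computed. In radial glia-like cells the count of 0 became 1 under a gate on 8 marker genes without clustering, where Fabp7 reached -1.54, Mfge8 -0.76 and Ddah1 -0.79, and Sox9 stood at 0.06 and Slc1a3 at 0.21. That gate took in 316 ShhN and 127 wild type cells, of which 58.9% and 86.6% lay in the radial glia-like cluster. Over 17 settings Fabp7 in radial glia-like cells ranged from -1.54 to -0.69 and was below 0 in all 17, and over 9 settings in all cells from -0.53 to -0.35. Settings that change only the minimum of UMIs return the same ratio, and a scaling shifts all ratios of a class alike. Counts of settings are therefore not counts of independent checks. Without the globin-rich cells Fabp7 in radial glia-like cells was at -0.81. Vim and Ednrb in radial glia-like cells, and Mfge8 and Ddah1 over all cells, changed sign under some settings.

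Calls in the other classes depended on the clustering. With the main settings, 8 pairs of gene and class were lower and 1 higher. The share of all genes called in each of these classes is given above for the main settings only. A change in the number of pairs therefore cannot be told apart from a change in the number of all genes called. The lower pairs became 4 with at most 5% mitochondrial UMIs, 2 at resolution 0.5, 4 at resolution 2, 5 with the 9 genes among the variable genes and 3 with wild type clusters. The 1 higher pair was Ddah1 in vascular-like cells. The number of higher pairs became 2 under either scaling, 0 with at least 200 UMIs, 4 with equal weight per cell and 0 with thinning. It became 2 with at most 5% mitochondrial UMIs, 5 with doublets kept, 4 at resolution 0.5, 2 at resolution 2 and 4 with wild type clusters. The 4 with equal weight per cell were called without the interval. With doublets kept, at resolution 0.5 and with wild type clusters, the higher pairs included Sox9, Vim and Nes in GABAergic interneuron-like cells. In those settings no class matching cluster 11 was compared, and where its cells were placed was not examined. The make-up of the interneuron-like class can thus differ there. With the main settings Sox9 had 7.69 CPM in ShhN interneuron-like cells and 125 CPM in ShhN cells of cluster 11. Scaling moved the median of all genes by 0.12 in the class of clusters 10, 12 and 16, by 0.17 in cluster 11 and by 0.11 in deep layer neuron-like cells. The ratio of shares with at least 6 genes was 1.42, and 1.76 without thinning. Beyond the constructions named, the cause was not tested. No paired analysis was possible because each matrix pools its 4 samples, and no sample could be left out for the same reason.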

Other observations

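For each of the 9 genes, the 3 genes most alike in pattern were looked up over 22 points, 11 classes in each of 2 libraries, by Pearson r of log2(CPM + 10), among 11140 genes. The points share library and depth and the classes were built from many of these genes, so the values are a description. Sox2 was most alike to Sox6 (0.97) and Sox1 (0.96), both SOX factors, followed by Srrm1 (0.90). Sox9 was most alike to Gas1 (0.97), Phgdh (0.96) and Sox21 (0.96), and Fabp7 to Creb5 (0.99), Gsta4 (0.95) and Gli3 (0.95). For Slc1a3 they were Fgfr3 (0.93), Rpp40 (0.92) and Bckdhb (0.92), and for Ednrb Asrgl1 (0.95), E2f5 (0.94) and Rfx4 (0.94). Vim was most alike to Mcur1, Spata13 and Trp53i13 (0.93 to 0.95), and Nes to Eef1d, Jam2 and Grb10 (0.95 to 0.97). Mfge8 had Zfp36l1 (0.98), Gpx8 (0.97) and Id1 (0.97), and Ddah1 had Pdcd5 (0.93), Sub1 (0.89) and Id1 (0.89). Between the 9 genes r ran from 0.46 for Sox2 with Vim to 0.94 for Mfge8 with Nes.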
